A study of Rattus norvegicus with 6 samples.

Results

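Cyclin Y and its kinase partners were followed as 9 genes chosen by name: the cyclin Ccny, its paralog Ccnyl1, the PFTAIRE and PCTAIRE kinases Cdk14, Cdk16, Cdk17 and Cdk18, and the neuronal kinase Cdk5 with its activators Cdk5r1 and Cdk5r2. They were taken by gene symbol from a table of 17066 genes, which lists 8 of them, and Ccnyl1 is not analysed here. All 8 passed the filter on low values, an FPKM (a length-scaled expression level) of 1 in at least 2 libraries. The RNA came from primary hippocampal neurons of Sprague-Dawley rats, cultured from embryos at embryonic day 18, infected with lentivirus at 5 or 6 days in vitro (DIV) and harvested at DIV 14. Neurons of the EGFP condition received a virus with EGFP alone, those of CCNY-WT a virus with CCNY-WT-EGFP for overexpression, and those of CCNY-shRNA a virus with CCNY-shRNA-EGFP for knockdown, so that all 3 conditions were infected and carried EGFP. Each condition was sequenced as 2 libraries, called replicates 1 and 2. No label says that the 2 came from separate cultures, so the p-values and intervals rest on the spread between these libraries, which may be technical. The vector backbone was FUGW. The promoter, the shRNA sequence and the species of the CCNY insert are not given in the sources used here, and no arm with a non-targeting shRNA is among the groups.

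Cyclin Y is an unusual cyclin that is held at membranes by a lipid anchor and is found in neurons that no longer divide. It binds CDK14 and brings it to the plasma membrane, where the pair phosphorylates the Wnt co-receptor LRP6, and it also activates CDK16, a kinase that takes part in the transport of presynaptic components. Phosphorylated cyclin Y is bound by 14-3-3 proteins. Cdk5 is the best known member of this group in the brain. It is switched on not by a cyclin but by the neuronal proteins encoded by Cdk5r1 and Cdk5r2, and it acts in neuronal migration, the cytoskeleton and synaptic plasticity.

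Expression was given as FPKM, a fragment count scaled by the length of the transcript and by the size of the library, so that levels of different genes can be set side by side. The table holds no fragment totals. Steps between the FPKM values of weakly expressed genes gave estimates of relative depth of 0.819 to 1.33 times that of EGFP replicate 1. The highest of these was CCNY-WT replicate 1, where 15.1% of the summed FPKM lay in 1 gene, Bc1. Each of 8 neuron markers had an FPKM of at least 40.9 in every library, and their summed FPKM ranged from 3233 to 3353 over the 6 libraries. Within this sum the inhibitory neuron marker Gad2 had an FPKM of 129 in each CCNY-shRNA library against 170 to 181 in the other 4, and Gad1 had 183 and 187 against 188 to 204. Their part in the results was not tested. None of 6 microglia markers reached an FPKM of 1 in any library, with Aif1 and Cx3cr1 at 0. Summed FPKM was 244 to 313 for 6 astrocyte markers, 37.0 to 47.3 for 7 markers of the oligodendrocyte lineage (Sox10 at 0), 31.7 to 36.5 for 5 markers of dividing cells and 13.5 to 17.4 for 4 vascular and meningeal markers (Cldn5 at 0). Most of the dividing cell sum was Pcna, at 28.3 to 32.4, with the other 4 markers at 2.02 or less, and most of the vascular sum was Dcn, at 13.2 or more, with the other 3 under 1. The cultures thus held transcripts of neurons and, at lower levels, of astrocytes. In such bulk RNA, fewer cells of a type and less RNA per cell cannot be told apart.

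Ccny, the manipulated gene, was measured in every library first. Its FPKM was 43.1 and 42.3 with EGFP, 108 and 109 with CCNY-WT, and 5.98 and 6.19 with CCNY-shRNA. The 3 conditions did not overlap, and the replicates of each lay close together, with a coefficient of variation of 1.41%, 0.561% and 2.43%. Ranked among all 17066 genes from the highest FPKM down, Ccny was at 2602 and 2624 with EGFP, 1054 and 1057 with CCNY-WT, and 7719 and 7619 with CCNY-shRNA. On log2 of FPKM floored to 1, it was 2.55-fold higher in CCNY-WT than in EGFP, with a 95% interval of 2.29 to 2.83 (limma adjusted p = 0.000461). In CCNY-shRNA 14.2% of the EGFP level was left, a log2 change of -2.81 with an interval of -2.96 to -2.66 (limma adjusted p = 1.57e-06). Between both manipulated conditions the difference was -4.16 (standard error 0.0658, limma adjusted p = 7.41e-08). Ccny had the smallest p of all 10188 genes tested in each of the 3 comparisons. The table has 1 value per gene and library, so transcripts of the insert and of the rat gene cannot be told apart in CCNY-WT. The study's quantitative real-time PCR of CCNY mRNA gave a much larger rise with CCNY-WT and a smaller fall with CCNY-shRNA than these FPKM values. The reason for this difference was not tested.

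**Figure D1:**
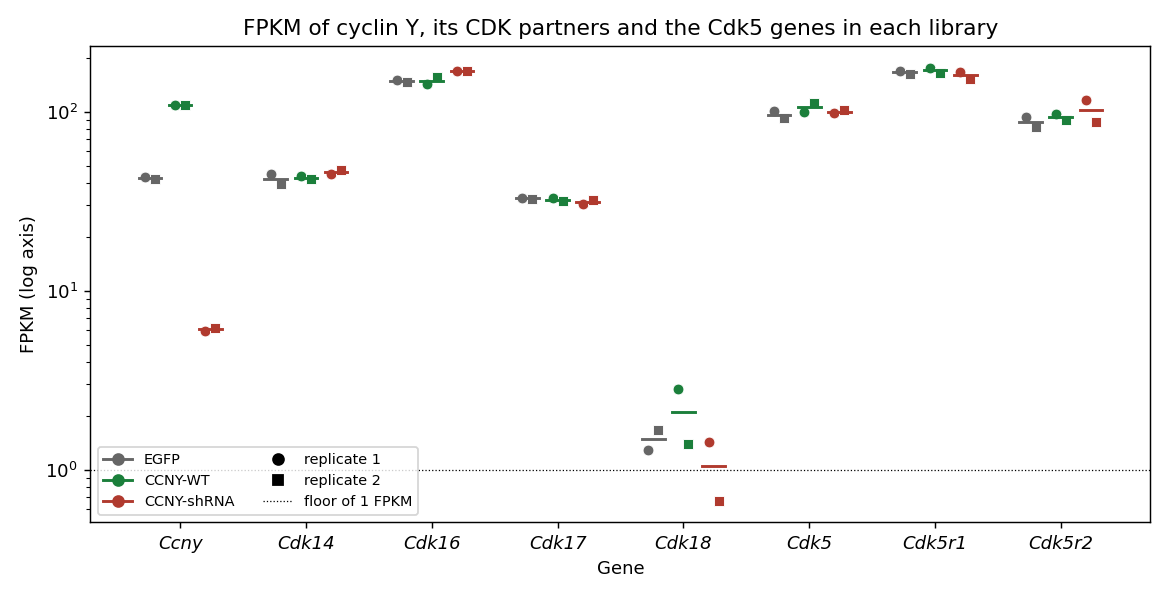
FPKM (log axis) of the 8 listed genes in each library, with circles for replicate 1, squares for replicate 2 and a bar at the mean of each condition; the dotted line is the floor of 1 FPKM used before taking log2. Ccny separates into 3 levels, from about 6.09 in CCNY-shRNA to 109 in CCNY-WT, while the fitted differences of Cdk14, Cdk16 and Cdk17 from EGFP are at most 1.13-fold and Cdk18 scatters around the floor.

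Cdk14, the PFTAIRE kinase that is the best known partner of cyclin Y, was expressed at the level of Ccny itself in the control neurons. Its FPKM was 45.0 and 39.5 with EGFP, 43.6 and 41.9 with CCNY-WT, and 44.8 and 47.4 with CCNY-shRNA. The EGFP libraries spanned both CCNY-WT libraries and overlapped the lower CCNY-shRNA library. The log2 change was 0.020 in CCNY-WT (95% interval -0.16 to 0.20) and 0.13 in CCNY-shRNA (-0.05 to 0.31), neither of which passed limma's test (adjusted p = 0.973 and 0.422). Given the spread between these libraries alone, the intervals leave room for a change of up to 1.24-fold in CCNY-shRNA.

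Cdk16, the PCTAIRE kinase that cyclin Y activates, was the most abundant of the 4 partner kinases. Its FPKM was 151 and 146 with EGFP, 143 and 156 with CCNY-WT, and 169 and 168 with CCNY-shRNA. Both CCNY-shRNA libraries lay above all 4 other libraries, whereas the CCNY-WT libraries lay on either side of EGFP. The difference from EGFP was 1.13-fold in CCNY-shRNA (log2 change 0.18, standard error 0.0582, 95% interval 0.04 to 0.31). It did not pass over all genes (limma adjusted p = 0.168), where it ranked 979 of 10188 by p. Against CCNY-WT the difference was 0.17 (limma adjusted p = 0.317). In CCNY-WT the change from EGFP was 0.0045, with an interval of -0.13 to 0.14.

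Cdk17, the second PCTAIRE kinase, had an FPKM of 33.0 and 32.7 with EGFP, 33.0 and 31.5 with CCNY-WT, and 30.5 and 32.3 with CCNY-shRNA. Both CCNY-shRNA libraries were below both EGFP libraries, but by a mean log2 difference of only -0.06, with a 95% interval of -0.22 to 0.09 (limma adjusted p = 0.665). Cdk18, the last PCTAIRE kinase, was barely expressed. Its FPKM was 1.29 and 1.66 with EGFP, 2.83 and 1.39 with CCNY-WT, and 1.42 and 0.672 with CCNY-shRNA, and the 3 conditions overlapped. CCNY-WT replicate 1 alone stood high, and CCNY-shRNA replicate 2 lay under the floor. The log2 change was 0.44 in CCNY-WT with an interval of -0.39 to 1.27, and it was -0.08 without CCNY-WT replicate 1. In CCNY-shRNA it was -0.30, with an interval of -1.13 to 0.53. Changes of Cdk18 of that size were not detectable at this expression level. The summed FPKM of the 7 oligodendrocyte lineage markers was 44.3 and 44.0 with EGFP, 47.3 and 41.8 with CCNY-WT, and 40.1 and 37.0 with CCNY-shRNA. It was thus highest and lowest in the same libraries as Cdk18, and its part in the Cdk18 values was not tested.

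Cdk5 itself had an FPKM of 101 and 91.7 with EGFP, 100.2 and 112 with CCNY-WT, and 98.0 and 102 with CCNY-shRNA. The conditions overlapped, and the log2 change was 0.13 in CCNY-WT (95% interval -0.04 to 0.31) and 0.06 in CCNY-shRNA (-0.11 to 0.23). Cdk5r1, its main activator in forebrain neurons, was the most abundant of the 8 genes in EGFP, with 170 and 163. It had 176 and 165 with CCNY-WT and 167 and 152 with CCNY-shRNA, which again overlapped EGFP. The change in CCNY-shRNA was -0.06, with an interval of -0.21 to 0.09. The second activator, Cdk5r2, varied more between replicates. Its FPKM was 93.8 and 81.9 with EGFP, 96.8 and 89.6 with CCNY-WT, and 117 and 87.9 with CCNY-shRNA. Replicate 1 was the higher in each condition, and CCNY-shRNA was above EGFP within each replicate number. With the replicate number added to the model, the standard error in CCNY-shRNA against EGFP was 0.0782 in place of 0.128 (limma adjusted p = 0.217). The higher mean in CCNY-shRNA (log2 change 0.21, 95% interval -0.09 to 0.50, limma adjusted p = 0.424 without the replicate number) rested on replicate 1, and the difference from the mean of both EGFP libraries was 0.0033 without that library. In the same library the summed FPKM of the 6 astrocyte markers was 244, against 310 in CCNY-shRNA replicate 2 and 291 and 307 with EGFP. Its part in the Cdk5r2 values was not tested.

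**Figure D2:**
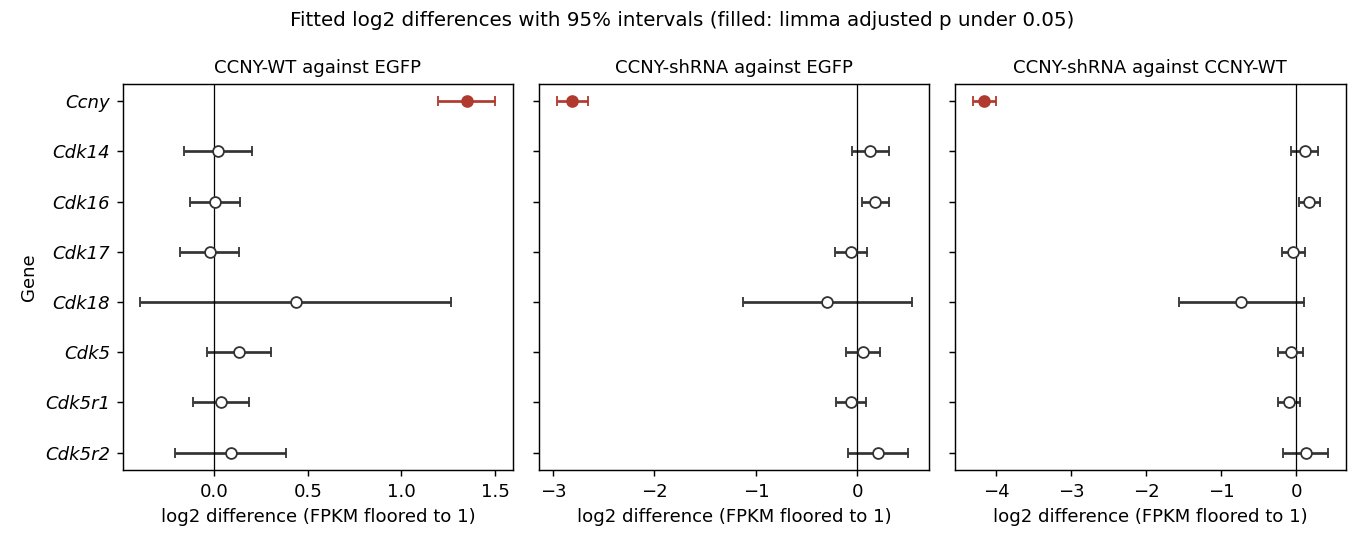
Fitted log2 difference of each of the 8 genes (points) with its 95% interval (bars) in the 3 comparisons, on log2 of FPKM floored to 1; filled red points passed a limma adjusted p of 0.05. Only Ccny is filled, at 1.35, -2.81 and -4.16, and apart from Cdk16 in both comparisons of CCNY-shRNA the intervals of the other genes include 0.

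Counted over the group, 1 of the 8 genes passed limma's test in CCNY-WT against EGFP, in CCNY-shRNA against EGFP and in CCNY-shRNA against CCNY-WT, and each time it was Ccny. Over all 10188 genes tested, 0.00982%, 0.746% and 0.216% passed in these comparisons. Of the 7 genes other than Ccny, 0 passed in each comparison by limma, and the number with an unadjusted p under 0.05 was 0 in CCNY-WT against EGFP and 1, Cdk16, in each of the others, where 6.83%, 18.6% and 12.2% of all genes were under it in the order of the comparisons. Libraries of the 2 conditions did not overlap for 0 of the 7 in CCNY-WT against EGFP, where 39.5% of all genes tested did not. In CCNY-shRNA against EGFP, 2 of the 7 did not overlap (Cdk16 higher and Cdk17 lower), against 48.4% of all genes. In CCNY-shRNA against CCNY-WT, Cdk14 and Cdk16 were higher without overlap, against 42.2% of all genes. By the study's size thresholds, without a test, 2 of the 8 genes (Ccny and Cdk18) differed by at least 0.3 in CCNY-WT, as did 8.35% of the genes tested, and 1 (Ccny) differed by at least 0.33 in CCNY-shRNA, as did 13.1%. The median log2 change of the 7 genes was 0.037 in CCNY-WT and 0.057 in CCNY-shRNA, beside medians over all genes of 0.0041 and 0.0. With 2 libraries against 2, an exact permutation test of a single gene cannot go below a two-sided p of 0.333.

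The ratio of cyclin to kinase transcripts separated the 3 conditions, which follows from the manipulation of Ccny and is not a separate result. In CCNY-WT the Ccny value may include transcripts of the insert, so its ratios there may not be those of the rat gene alone. The sum of Cdk14, Cdk16, Cdk17 and Cdk18 was 231 and 220.0 FPKM in EGFP, 223 and 230 with CCNY-WT, and 245 and 248 with CCNY-shRNA. For each FPKM of these kinases there was 0.190 ± 0.00369 (SD, n = 2) FPKM of Ccny with EGFP, 0.481 ± 0.00911 with CCNY-WT and 0.0247 ± 0.000382 with CCNY-shRNA. Against Cdk14 alone, Ccny was at a ratio of 0.958 and 1.07 with EGFP, 2.49 and 2.60 with CCNY-WT, and 0.134 and 0.131 with CCNY-shRNA. Within the kinase pool, Cdk16 made up 65.6% and 66.4% of the sum in EGFP, 64.3% and 67.5% with CCNY-WT, and 68.7% and 67.6% with CCNY-shRNA. The ratio of Cdk16 to Cdk17 was 4.59 and 4.47 with EGFP, 4.33 and 4.94 with CCNY-WT, and 5.53 and 5.20 with CCNY-shRNA, so both CCNY-shRNA libraries were above the others. For Cdk5, the FPKM of both activators together was 2.61 and 2.67 times that of the kinase in EGFP, 2.73 and 2.28 times with CCNY-WT, and 2.89 and 2.35 times with CCNY-shRNA, with all conditions overlapping. Cdk5r1 exceeded Cdk5r2 in each library, by 1.81 and 1.99 times with EGFP, 1.82 and 1.84 times with CCNY-WT, and 1.43 and 1.73 times with CCNY-shRNA. Both CCNY-shRNA libraries were thus below the others. These ratios are descriptions of transcript levels and were not tested.

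**Figure D3:**
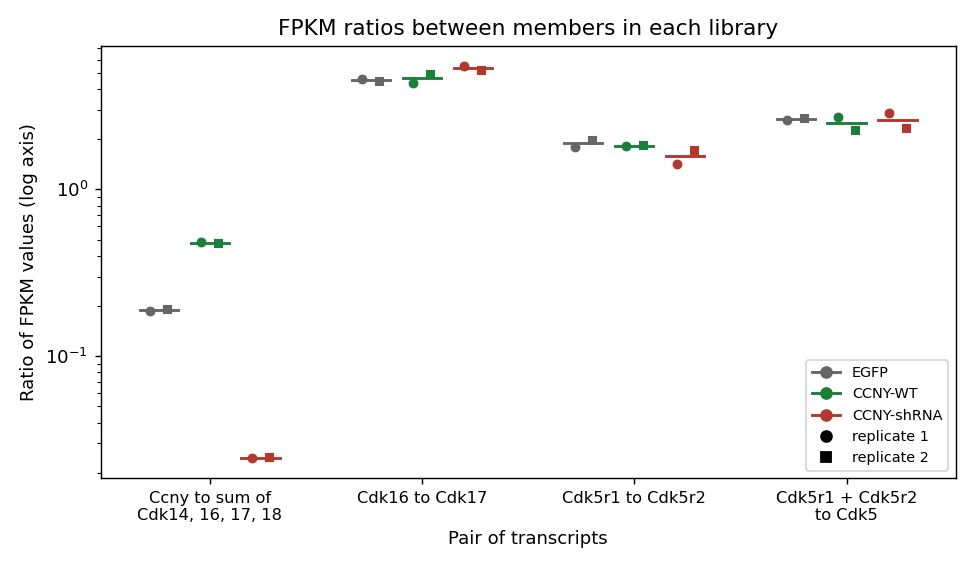
Ratios of FPKM values between genes of the group in each library (log axis), with circles for replicate 1, squares for replicate 2 and a bar at the mean of each condition. The ratio of Ccny to its 4 partner kinases separates into 0.0247, 0.190 and 0.481. The other ratios differ less, though in both CCNY-shRNA libraries Cdk16 to Cdk17 is above, and Cdk5r1 to Cdk5r2 below, all other libraries.

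The order of the levels in EGFP, from the highest mean FPKM, was Cdk5r1 (166 ± 4.57, SD, n = 2), Cdk16 (149 ± 3.68), Cdk5 (96.4 ± 6.61), Cdk5r2 (87.9 ± 8.39), Ccny (42.7 ± 0.601), Cdk14 (42.3 ± 3.94), Cdk17 (32.8 ± 0.204) and Cdk18 (1.48 ± 0.258). Cdk5 and Cdk5r2 overlapped between libraries, as did Ccny and Cdk14, and the other neighbours did not. In CCNY-WT, where its value may include transcripts of the insert, Ccny stood in position 3 and overlapped Cdk5. In CCNY-shRNA it stood in position 7, above Cdk18 and below Cdk17, without overlap with either. There Cdk16 (168 ± 0.443) was above Cdk5r1 (159 ± 10.3), the reverse of their order in EGFP. Their nearest libraries were at 168 and 167, and neither gene's change from EGFP passed limma's test.

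Other genes of the same pathways were read from lists written from general knowledge. Of 12 further partners and targets of the cyclin Y kinases, 9 could be tested: the Wnt co-receptors Lrp5 and Lrp6, the vesicle fusion ATPase Nsf and 6 genes for 14-3-3 proteins. By limma 0 of the 9 rose and 0 fell in either condition against EGFP, and 0 had an unadjusted p under 0.05. Over all genes tested, 0.00982% and 0.746% passed in CCNY-WT and CCNY-shRNA, and 6.83% and 18.6% had an unadjusted p under 0.05. Beside such shares, a count of 0 among 9 genes says little about this list. Their median log2 change was 0.013 for CCNY-WT and 0.059 for CCNY-shRNA. The smallest p in CCNY-shRNA was that of Ywhag, a 14-3-3 gene with an FPKM of 757 and 723 with EGFP, 749 and 754 with CCNY-WT, and 798 and 821 with CCNY-shRNA (log2 change 0.13, limma adjusted p = 0.307). Lrp5 was low in all libraries, at 2.56 and 2.84 with EGFP, 2.31 and 2.37 with CCNY-WT, and 2.29 and 2.13 with CCNY-shRNA (limma adjusted p = 0.423 in CCNY-shRNA).

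Of 11 regulators of Cdk5, 8 could be tested, and 1 rose past the adjusted threshold in CCNY-shRNA, where 0.746% of all genes tested passed. This was Ccni, encoding cyclin I, a cyclin reported to bind and activate Cdk5. Its FPKM was 128 and 129 with EGFP, 139 and 130 with CCNY-WT, and 161 and 168 with CCNY-shRNA. Both CCNY-shRNA libraries were above all others (log2 change 0.36, standard error 0.0552, limma adjusted p = 0.0437). In CCNY-WT the change was 0.07 (limma adjusted p = 0.854), and the direct difference between CCNY-shRNA and CCNY-WT of 0.29 did not pass (limma adjusted p = 0.117). The call of Ccni rests on the settings: it was lost in 10 of 15 alternatives, among them the omission of any library but CCNY-shRNA replicate 1, where the adjusted p reached 0.277, while the change stayed between 0.32 and 0.39. Next in this list by p were Capns1 and Cast, which encode a subunit and an inhibitor of the calpains, proteases that cleave the Cdk5 activators. Capns1, the small calpain subunit, had an FPKM of 279 and 288 with EGFP, 281 and 323 with CCNY-WT, and 367 and 408 with CCNY-shRNA (log2 change 0.45, limma adjusted p = 0.0588). Cast, encoding the calpain inhibitor calpastatin, had 8.26 and 8.61 with EGFP, 9.24 and 9.40 with CCNY-WT, and 12.1 and 11.4 with CCNY-shRNA (0.48, limma adjusted p = 0.0879). In both genes the CCNY-shRNA libraries were above all others, but neither passed. Capns1 passed in 4 of the 15 alternatives, with a lowest adjusted p of 0.0418 by limma, among them the omission of CCNY-shRNA replicate 1 (0.0475). The catalytic subunit Capn2 had an FPKM of 36.0 and 39.5 with EGFP and 36.2 and 33.8 with CCNY-shRNA, which overlapped (log2 change -0.11, limma adjusted p = 0.470), and Capn1 was not tested because of its low values. In CCNY-WT, 0 of the 8 passed, where 0.00982% of all genes tested did. Cables1, an adaptor between Cdk5 and the kinase Abl, had the smallest p there. Its FPKM was 3.75 and 4.07 with EGFP and 5.81 and 4.98 with CCNY-WT (0.46, limma adjusted p = 0.725). At an unadjusted limma p under 0.05, 1 of the 8 was higher and 0 lower in CCNY-WT, beside 6.83% of all genes. In CCNY-shRNA 3 were higher and 0 lower, beside 18.6%. The median log2 change of the list was 0.097 in CCNY-WT and 0.22 in CCNY-shRNA.

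Of 26 neuronal substrates of Cdk5, 25 could be tested, and by limma 0 rose and 0 fell in either condition. Over all genes tested, 0.00982% passed in CCNY-WT and 0.746% in CCNY-shRNA. Values under an unadjusted p of 0.05 were 0 higher and 2 lower in CCNY-WT, and 1 higher and 5 lower in CCNY-shRNA. Over all 10188 genes there were 390 higher and 306 lower in CCNY-WT, and 937 higher and 954 lower in CCNY-shRNA, so that 6 of 25 stand beside 18.6% of all genes. The median log2 change was -0.04 for CCNY-WT and -0.07 for CCNY-shRNA. The smallest p in CCNY-shRNA belonged to Grin2a, an NMDA receptor subunit that is also on a list the study drew from these libraries, with an FPKM of 21.5 and 21.0 with EGFP, 20.2 and 18.6 with CCNY-WT, and 17.5 and 14.8 with CCNY-shRNA (log2 change -0.40, limma adjusted p = 0.112). Kalrn, encoding a signalling protein of dendritic spines, was at 31.3 and 30.5 with EGFP, 27.4 and 25.7 with CCNY-WT, and 26.5 and 24.8 with CCNY-shRNA, and so lay below EGFP in all 4 manipulated libraries. Its changes were -0.22 and -0.27 (limma adjusted p = 0.725 and 0.124). Both comparisons use the same EGFP libraries. Mef2d, a survival transcription factor inhibited by Cdk5, had the next smallest p in CCNY-shRNA, with 26.6 and 27.2 with EGFP against 23.7 and 21.0 (-0.27, limma adjusted p = 0.152). In CCNY-WT, Map1b and Syn1, for a microtubule protein and a synaptic vesicle protein, differed from EGFP by -0.18 and -0.11 (limma adjusted p = 0.729 and 0.761).

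The remaining cyclins and CDKs, most of which act in the cell cycle or in transcription, give a frame for the group. Of 9 other CDKs tested, 0 rose and 0 fell past limma's adjusted threshold in either condition, beside 0.00982% and 0.746% of all genes. Before adjustment, 1 was higher and 0 lower with limma p under 0.05 in CCNY-WT, beside 6.83% of all genes. In CCNY-shRNA 0 were higher and 2 lower, beside 18.6%. Cdk4, a kinase of the G1 phase, had an FPKM of 40.2 and 39.6 with EGFP, 32.1 and 38.3 with CCNY-WT, and 31.8 and 32.5 with CCNY-shRNA (log2 change in CCNY-shRNA -0.31, limma adjusted p = 0.134). Cdk19 and Cdk10 followed in CCNY-shRNA, with changes of -0.31 and 0.17 (limma adjusted p = 0.269 and 0.336), and Cdk20 led in CCNY-WT with 0.33 (limma adjusted p = 0.725). Of 19 other cyclins tested, Ccni, which is also in the Cdk5 list, was the only one past the threshold in CCNY-shRNA, and 0 passed in CCNY-WT. Over all genes tested, 0.746% passed in CCNY-shRNA and 0.00982% in CCNY-WT. At an unadjusted limma p under 0.05, 1 cyclin was higher and 2 were lower in CCNY-WT, beside 6.83% of all genes. In CCNY-shRNA 1 was higher and 2 were lower, beside 18.6%. Ccng2, a cyclin raised when cells leave the cycle, had 18.5 and 17.2 with EGFP, 15.2 in each CCNY-WT library, and 13.2 and 12.1 with CCNY-shRNA (-0.50, limma adjusted p = 0.0663). Ccnf, Ccng2 and Ccna1 had the smallest p in CCNY-WT (0.48, -0.23 and -0.57, limma adjusted p of 0.725, 0.729 and 0.729), and the mitotic cyclin Ccnb1 followed Ccni and Ccng2 in CCNY-shRNA, at an FPKM of 1.72 and 1.63 with EGFP against 1.02 and 1.20 (limma adjusted p = 0.224).

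**Figure D4:**
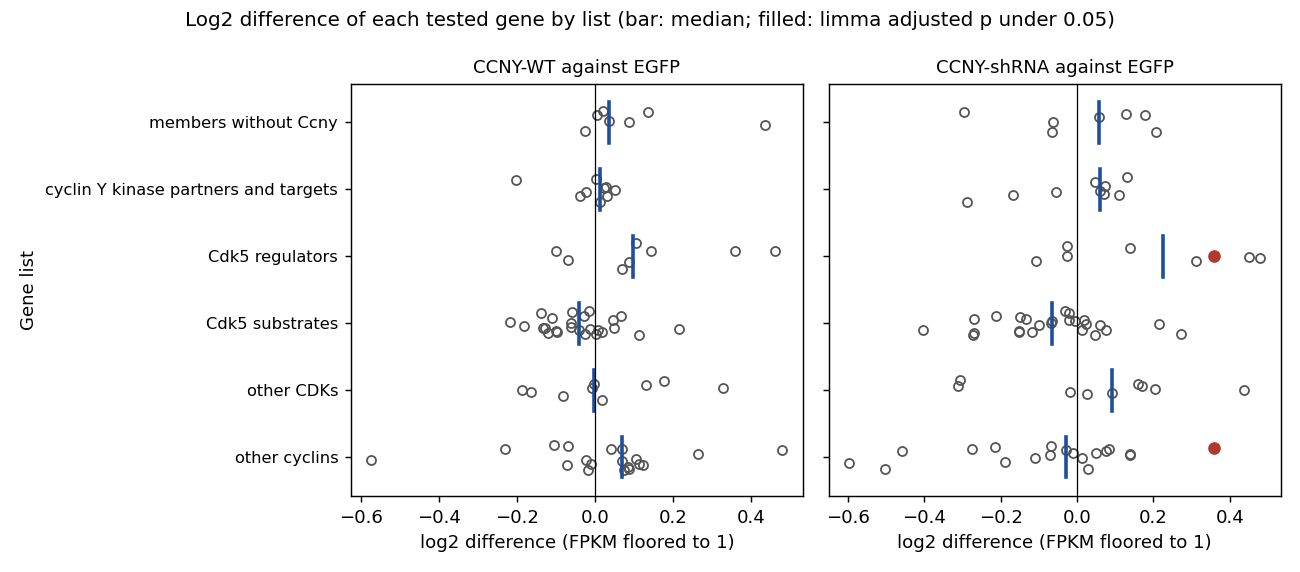
Log2 difference from EGFP of each tested gene (circles) by list in CCNY-WT (left) and CCNY-shRNA (right), with a blue bar at the median of the list; filled red circles passed a limma adjusted p of 0.05. The medians lie between -0.07 and 0.22, the largest being that of the Cdk5 regulators in CCNY-shRNA. The 2 filled circles are Ccni, which stands in 2 lists.

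Genes were also ranked by how closely their log2 FPKM followed that of Ccny over the 6 libraries, among 1198 genes with a mean FPKM of at least 5 and a log2 range of at least 0.5. The closest were Adi1, Bcan and Zfp667, with a Pearson r of 0.988, 0.980 and 0.968, and the most opposed were Toe1, Smarcd2 and Nfic, with -0.984, -0.969 and -0.943. Their ranges were small beside that of Ccny. Adi1, an enzyme of methionine salvage, had an FPKM of 5.67 and 5.46 with EGFP, 6.20 and 6.56 with CCNY-WT, and 4.38 and 4.14 with CCNY-shRNA. Bcan, the perineuronal proteoglycan brevican, also on a list the study drew from these libraries, had 28.5 and 29.2, 30.0 and 32.8, and 21.8 in each CCNY-shRNA library. Toe1 had 6.32 and 6.16, 5.89 and 5.77, and 8.38 and 7.92. The 6 points share 3 conditions and were searched over many genes, so these values describe likeness only.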

How the data were processed

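Per the methods and the submitters' processing notes, the authors mapped paired-end reads of poly-A RNA to the rat build rn4 with TopHat2 2.0 and Bowtie2 2.1.0 and let Cufflinks 2.2.1 compute FPKM for each gene in each library; the deposited FPKM table was used as it stands. Its annotation, strand setting and any scaling between libraries are not given in the sources used here, and its replicates are not pooled. FPKM was floored to 1 and log2-transformed, as in the study. Genes that reached an FPKM of 1 in 2 or more of the 6 libraries were tested with limma 3.58.1 in R 4.3.3 (lmFit, contrasts.fit, eBayes with a trend, all 6 libraries, two-sided), with Benjamini-Hochberg adjustment over all genes tested and a threshold of 0.05. Relative depth was estimated from the commonest ratio between libraries among 188 genes with an FPKM under 0.3. With it, 92.8% of 909 values lay on ratios of whole numbers up to 12 within 0.001, against 0.550% after a shift. This check cannot tell a depth from one that is off by a ratio of small whole numbers. The commonest ratio was that of 25 genes in CCNY-WT replicate 1 and of 46 to 52 in the other libraries compared with EGFP replicate 1. The model was also run on simulated data with planted changes larger than those fitted for the genes of the group other than Ccny. That run therefore does not show whether changes of their size could be detected. Tables and figures used Python 3.11.15, pandas 2.3.3, numpy 2.4.6, scipy 1.17.1 and matplotlib 3.10.9.

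The 9 genes, the other lists and the tests were chosen with earlier results of these data known. All listed members are named, with, from the other lists, genes past the threshold and the 3 of smallest p against EGFP in each condition, of which Cdk5rap2, Ywhae and Ywhaq are given only in the counts; the likeness ranking names 3 genes at each end. Symbols were matched directly. Of the other lists, Cdk15, Caprin2, Sfn, Cables2, Cdk5rap3, Cdk7 and Ccnd3 are not analysed here.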

Additional observations from a re-analysis of the deposited data

How the results depend on the processing

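Ccny passed limma's threshold in all 3 comparisons under each of 15 alternatives, with changes of 1.33 to 1.36 in CCNY-WT and -2.84 to -2.62 in CCNY-shRNA against EGFP. The 7 other genes gave 315 values over these alternatives and comparisons, of which 0 passed limma's adjusted threshold, the lowest adjusted p being 0.104, and 13 changed sign. Beside Cdk16 in CCNY-WT under quantile normalization (-0.020), the sign changes came with 1 library left out: in CCNY-WT, Cdk14 ranged from -0.075 to 0.115, Cdk16 from -0.056 to 0.065, Cdk17 from -0.059 to 0.0091, Cdk18 from -0.079 to 0.95, Cdk5r1 from -0.012 to 0.086 and Cdk5r2 from -0.010 to 0.185; in CCNY-shRNA against EGFP, Cdk5 ranged from -0.013 to 0.127 and Cdk5r1 from -0.128 to 0.0036; in CCNY-shRNA against CCNY-WT, Cdk17 ranged from -0.082 to 0.0019 and Cdk5r2 from -0.084 to 0.326. Genes of the group past the size threshold numbered 1 in place of 2 in CCNY-WT with log2(FPKM + 1), and 2 in place of 1 in CCNY-shRNA with log2(FPKM + 0.1), where Cdk18 joined; leaving out 1 library gave 1 to 2 in both. Cdk18 left the CCNY-WT count without EGFP replicate 1 or CCNY-WT replicate 1, and joined the CCNY-shRNA count without EGFP replicate 1 or CCNY-shRNA replicate 1. Without CCNY-shRNA replicate 2, the gene that joined was Cdk5r2, at 0.41.

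Over all genes, 76 calls in CCNY-shRNA against EGFP became 2 with no filter, 40 with upper quartile scaling, 1 with eBayes without a trend, 1 with only the 2 groups compared, and 1 to 86 with a library left out (1 without either EGFP replicate, 18 without CCNY-WT replicate 1, 26 without CCNY-WT replicate 2 and 39 without CCNY-shRNA replicate 2). The 22 calls between CCNY-shRNA and CCNY-WT became 2 with no filter, 1 without a trend, 1 with only the 2 groups, and 1 to 22 with a library left out (8 without either EGFP replicate, 1 without either CCNY-WT replicate); the 1 call in CCNY-WT became 3 with log2(FPKM + 1) and 3 with the filter on mean FPKM. Taken over all genes, same-numbered libraries deviated together little (Pearson r 0.053, 0.038 and 0.054), so replicate numbers were not taken as pairs. Such a correlation cannot settle pairing for single genes. Among the 8 genes, only Cdk5r1 and Cdk5r2 were higher in replicate 1 in each condition. The replicate block gave 1, 39 and 18 calls over all genes, and 1 of the 8 genes, Ccny, in each comparison. It gave a limma adjusted p of 0.0624 for Ccni and 0.0418 for Capns1, which then passed. Ccni also lost its call with no filter (0.176), upper quartile scaling (0.0760), no trend (0.181), only the 2 groups (0.187) and without any library but CCNY-shRNA replicate 1 (0.0765 to 0.277). Capns1 also passed with the filter on mean FPKM (0.0476), with quantile normalization (0.0446) and without CCNY-shRNA replicate 1 (0.0475). The cause was not tested. The planned share of Ccnyl1 was not run. With 2 libraries a condition and no fragment counts, the 95% intervals drawn for the 8 genes bound what could be seen between these libraries. They may not cover the spread between cultures, and they are widest for Cdk18. No intervals are given for genes of the other lists.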
